A study of Oryza sativa with 16 samples.

Results

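The heat stress transcription factor genes HSFA2A, HSFA2D, HSFB1, HSFB2A, HSFB2B and HSFB2C were followed in rice seeds kept at normal temperature or moved to low temperature. These 6 genes were taken by name, with all 13 of their probe sets, from 57381 probe sets on the Affymetrix rice array, of which 22436 carried a single gene and together covered 17905 genes. They were chosen by their signals in these 8 conditions, in particular their differences after low temperature, so that levels and differences of the 6 genes are given below as a description, with standard errors and no p value. Where they are said to pass a threshold, that is part of the description. Of their 13 probe sets, 12 passed the filter on low signal and 1, for HSFB2B, did not.

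Heat stress transcription factors bind heat shock elements in the promoters of chaperone genes. Class A members carry an activating region, and in Arabidopsis HSFA2 is a strongly heat-induced activator that prolongs the expression of small heat shock proteins. Class B members lack that activating region, and in Arabidopsis HSFB1 and the HSFB2 proteins act mostly as repressors, also of heat-inducible heat stress factors.

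Total RNA of whole seeds was hybridised from 2 japonica cultivars, Zhonghua 11 (ZH), which the study calls sensitive to cold, and Hanfeng (HF), which it calls resistant. All plants grew in a phytotron with days at 28°C and nights at 22°C. Treated plants spent 2 days at 14°C, starting 4 days after fertilization (DAF) or 10 days after it. The 8 conditions were ZH seeds at 4, 6, 10 and 12 DAF (ZH 4D, ZH 6D, ZH 10D, ZH 12D), ZH seeds after the treatment from 4 DAF (ZH 4D-2DC) or 10 DAF (ZH 10D-2DC), HF seeds at 4 DAF (HF 4D) and HF seeds after the treatment from 4 DAF (HF 4D-2DC). Each had 2 arrays, labelled as biological replicates without a statement on whether they came from separate plants, so the standard errors cover the spread between these arrays, which may in part be technical. No untreated HF seed of 6 DAF was among the samples, so HF 4D-2DC was set against the younger HF 4D.

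Values were taken as MAS5 signals, an intensity per probe set, and used as log2(signal + 16), a scale on which a signal of 0 is 4 and a difference of 1 is a 2-fold change for signals well above 16. Both replicates of a condition correlated at r = 0.72 to 0.842 over the tested probe sets. Replicate 1 arrays had median signals of 85.9 to 172 and replicate 2 arrays of 49.8 to 60.1. Endosperm markers (storage protein and starch synthesis genes, 9 on the array) had a summed signal of 347818 and 26947 on the ZH 4D arrays and 44716 and 216283 on the HF 4D arrays. Not every marker was present throughout, as the lowest of the 9 had a mean signal of 21.4 in ZH 4D and 6.83 in ZH 6D. The embryo marker EMP1 was at 257 and 114 in ZH 4D, 52870 and 32902 in ZH 12D and 85759 and 38068 in ZH 10D-2DC. The 4 markers of green tissue summed to 1621 to 3573 on the replicate 1 arrays of the 3 conditions from 10 DAF and to 24580 to 54106 on those of replicate 2. The part of these marker differences in the results below was not tested, and in whole seeds fewer cells of a type and less RNA per cell cannot be told apart.

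HSFA2A was the class A gene of the 6 with the larger difference after low temperature, and it lay at 10 DAF. It had 3 probe sets. The first, Os.2292.1.S1_a_at, read 5.16 and 5.61 in ZH 12D (replicate 1 and replicate 2, in this order throughout) and 8.42 and 7.17 in ZH 10D-2DC. The second, Os.2292.2.S1_at, read 5.24 and 4.44 in ZH 12D and 8.87 and 8.11 in ZH 10D-2DC. The third, Os.2292.3.S1_x_at, whose suffix marks probes that can match other sequences as well, read 7.03 and 4.98 in ZH 12D and 9.72 and 9.93 in ZH 10D-2DC. Treated and control arrays did not overlap for any of the 3. The share of all probe sets whose 2 and 2 arrays do not overlap was not taken. Here and below, a lack of overlap therefore only describes the values. The log2 differences were 2.41 (standard error 0.80), 3.65 (standard error 1.11) and 3.82 (standard error 1.28).

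Before the treatment, at 10 DAF, HSFA2A differed widely between the 2 ZH arrays. Os.2292.2.S1_at read 8.38 and 6.22 in ZH 10D, and Os.2292.3.S1_x_at 9.79 and 6.03. Replicate 1 of ZH 10D was thus at the level of the treated seeds, and replicate 2 lay well below them. Against ZH 10D the 3 differences of ZH 10D-2DC were smaller, at 1.43 (standard error 0.80), 1.19 (standard error 1.11) and 1.91 (standard error 1.28), and the arrays of the 2 conditions overlapped in all 3. Both contrasts share the ZH 10D-2DC arrays. Between ZH 10D and ZH 12D the second probe set fell by 2.46 (standard error 1.11).

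At 4 DAF the HSFA2A values of ZH 4D-2DC and ZH 6D overlapped. Os.2292.3.S1_x_at read 8.14 and 5.79 in ZH 6D and 8.12 and 7.85 in ZH 4D-2DC, a difference of 1.02 (standard error 1.28). Os.2292.2.S1_at read 7.78 and 6.23 in ZH 6D and 8.44 and 7.63 in ZH 4D-2DC, a difference of 1.03 (standard error 1.11). Os.2292.1.S1_a_at, whose mean over all arrays lay just above the filter, read 6.54 and 5.68 in ZH 6D and 5.14 and 6.61 in ZH 4D-2DC, a difference of -0.24 (standard error 0.80). Against the younger ZH 4D, both treated arrays were higher for Os.2292.1.S1_a_at, which read 4.52 and 4.92 there, by 1.15 (standard error 0.80), and for Os.2292.3.S1_x_at, which read 6.61 and 5.66, by 1.85 (standard error 1.28). Os.2292.2.S1_at read 8.06 and 4.96 in ZH 4D and overlapped, with a difference of 1.53 (standard error 1.11).

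In HF seeds both treated arrays were higher for Os.2292.1.S1_a_at, which read 5.79 and 4.62 before and 6.21 and 6.12 after the treatment, a difference of 0.96 (standard error 0.80). Os.2292.2.S1_at read 5.78 and 4.97 in HF 4D and 7.82 and 5.44 in HF 4D-2DC, a difference of 1.25 (standard error 1.11) with overlapping arrays. Os.2292.3.S1_x_at was high on only one treated HF array, at 5.05 and 5.91 in HF 4D and 8.81 and 5.70 in HF 4D-2DC, a difference of 1.78 (standard error 1.28). Over the 8 condition means the 3 probe sets followed each other with r = 0.719, 0.918 and 0.898.

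**Figure D1:**
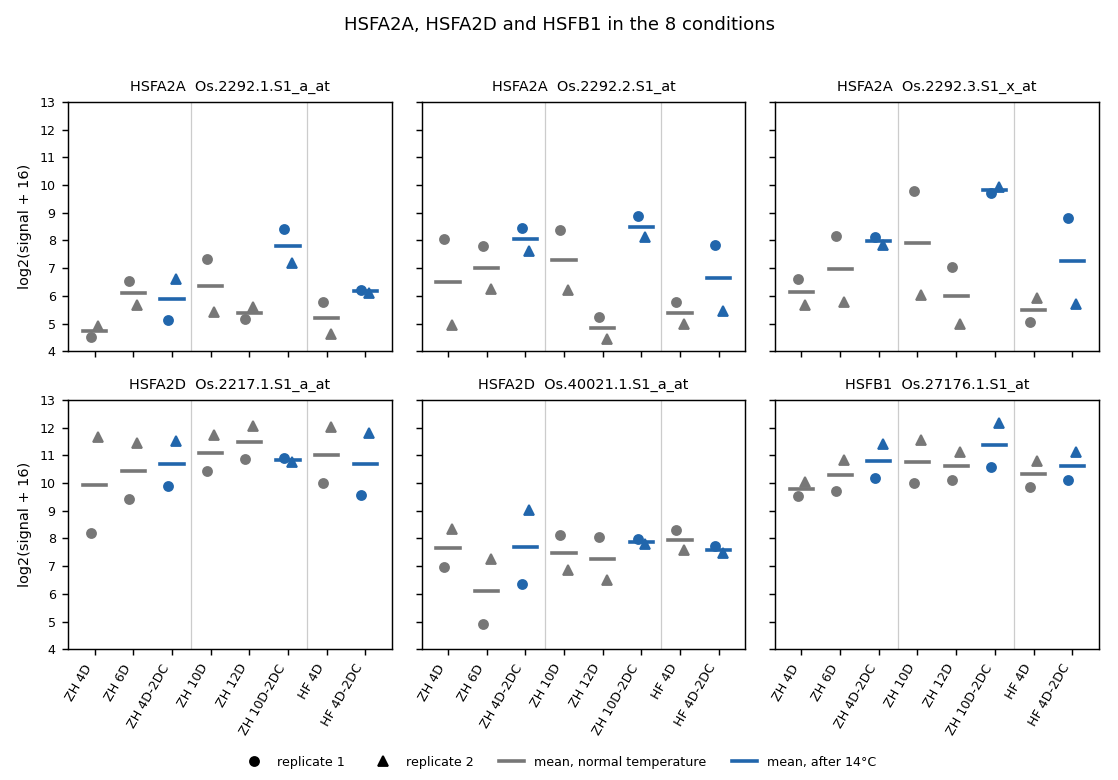
Levels of HSFA2A, HSFA2D and HSFB1 in the 8 conditions, 1 panel a probe set. The y axis is log2(signal + 16), circles are replicate 1, triangles replicate 2, and bars the mean of both, blue after 14°C and grey at normal temperature. HSFA2A was above ZH 12D on both ZH 10D-2DC arrays in all 3 panels, while the replicates of HSFA2D lay far apart in most conditions.

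In HSFA2D, a second class A2 gene, no low temperature difference passed the methods' threshold of unadjusted p below 0.05 and more than 2-fold. That held with and without the replicate number as a block. The 2 probe sets of HSFA2D also did not follow each other (r = 0.163 over the 8 condition means). The gene record behind both carries synonyms of an acireductone dioxygenase, an enzyme of methionine salvage, beside those of the heat stress factor. The source sequence of Os.40021.1.S1_a_at belongs to a run of 11 database entries that the annotation pairs with heat stress factor genes in 11 of 11 cases. The source sequence of Os.2217.1.S1_a_at does not belong to that run, and which transcript it measures was not settled here.

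Os.2217.1.S1_a_at read 9.40 and 11.44 in ZH 6D and 9.90 and 11.50 in ZH 4D-2DC. At the later stage it read 10.87 and 12.06 in ZH 12D and 10.90 and 10.76 in ZH 10D-2DC. Replicate 2 was above replicate 1 in 7 of 8 conditions, the widest gap being 8.19 and 11.67 in ZH 4D. The log2 difference was 0.28 (standard error 1.22) at 4 DAF and -0.63 (standard error 1.22) at 10 DAF. Os.40021.1.S1_a_at read 4.93 and 7.26 in ZH 6D and 6.37 and 9.02 in ZH 4D-2DC. Its treated seeds were higher within each replicate, by 1.44 and 1.76, while the arrays of the 2 conditions overlapped. Its difference was 1.60 (standard error 0.998) at 4 DAF and 0.62 (standard error 0.998) at 10 DAF, where it read 8.03 and 6.51 in ZH 12D and 7.99 and 7.78 in ZH 10D-2DC.

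HSFB1, the class B gene known in Arabidopsis as an early heat-induced repressor, had its highest mean level in ZH 10D-2DC. Its probe set Os.27176.1.S1_at was among the better expressed, with signals from 717 to 4592 over the 16 arrays. It read 10.10 and 11.13 in ZH 12D and 10.59 and 12.17 in ZH 10D-2DC, a difference of 0.77 (standard error 0.82). At 4 DAF it read 9.73 and 10.81 in ZH 6D and 10.17 and 11.42 in ZH 4D-2DC, a difference of 0.52 (standard error 0.82). Treated seeds were higher within both replicates at both stages, but the arrays of the 2 conditions overlapped each time because replicate 2 was above replicate 1 in 8 of 8 conditions. Only against ZH 4D, at 9.52 and 10.03, did both ZH 4D-2DC arrays lie higher, by 1.02 (standard error 0.82), a difference past the methods' threshold (unadjusted p below 0.05 and more than 2-fold) only with the replicate number as a block. In HF seeds HSFB1 read 9.84 and 10.79 before and 10.10 and 11.13 after the treatment, a difference of 0.30 (standard error 0.82).

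HSFB2A had the largest low temperature difference of the 6 genes relative to its standard error, with both probe sets and both replicates alike. At 10 DAF, Os.39876.1.S1_at read 8.85 and 9.15 in ZH 12D and 12.15 and 12.36 in ZH 10D-2DC, or signals of 446 and 553 against 4529 and 5257. Os.50642.1.S1_at read 6.91 and 7.57 in ZH 12D and 10.78 and 10.78 in ZH 10D-2DC. Neither probe set overlapped between the 2 conditions. The log2 differences were 3.26 (standard error 0.65), or 9.55-fold on this scale, and 3.55 (standard error 0.64), or 11.7-fold. Within replicate 1 and replicate 2 they were 3.30 and 3.21 for the first, and 3.88 and 3.21 for the second. ZH 10D-2DC was the highest of the 8 conditions and ZH 12D the lowest in both probe sets, which followed each other with r = 0.98 over the condition means.

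Untreated ZH seeds also changed in HSFB2A between 10 and 12 DAF. Os.39876.1.S1_at read 11.53 and 10.08 in ZH 10D, and Os.50642.1.S1_at 10.07 and 8.32. Both ZH 12D arrays lay below these in each probe set, with differences of -1.80 (standard error 0.65) and -1.96 (standard error 0.64). Against ZH 10D, the treated seeds were higher by 1.45 (standard error 0.65) and 1.59 (standard error 0.64). The choice of the untreated seed thus changed the size but not the direction, and both contrasts share the treated arrays.

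At 4 DAF the HSFB2A difference went the same way and was smaller. Os.50642.1.S1_at read 8.11 and 8.43 in ZH 6D, 8.002 and 8.18 in ZH 4D and 9.51 and 9.75 in ZH 4D-2DC. Both treated arrays were thus above all 4 untreated ones, by 1.36 (standard error 0.64) from ZH 6D and by 1.54 (standard error 0.64) from ZH 4D. Os.39876.1.S1_at read 9.70 and 10.27 in ZH 6D and 10.35 and 11.47 in ZH 4D-2DC, a difference of 0.93 (standard error 0.65). The difference at 10 DAF exceeded that at 4 DAF by 2.33 (standard error 0.92) for Os.39876.1.S1_at and by 2.18 (standard error 0.90) for Os.50642.1.S1_at.

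In HF seeds the HSFB2A values before and after the treatment overlapped. Os.50642.1.S1_at read 8.62 and 8.98 in HF 4D and 8.78 and 8.32 in HF 4D-2DC, a difference of -0.25 (standard error 0.64). Os.39876.1.S1_at read 10.21 and 10.28 in HF 4D and 10.76 and 10.03 in HF 4D-2DC, a difference of 0.15 (standard error 0.65). For Os.50642.1.S1_at both HF arrays lay above both ZH arrays before the treatment, by 0.71 (standard error 0.64), and below both after it, by -1.08 (standard error 0.64). The low temperature difference in HF minus that in ZH, each taken against the seed of 4 DAF, was -1.79 (standard error 0.90) for this probe set and -0.62 (standard error 0.92) for the other.

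**Figure D2:**
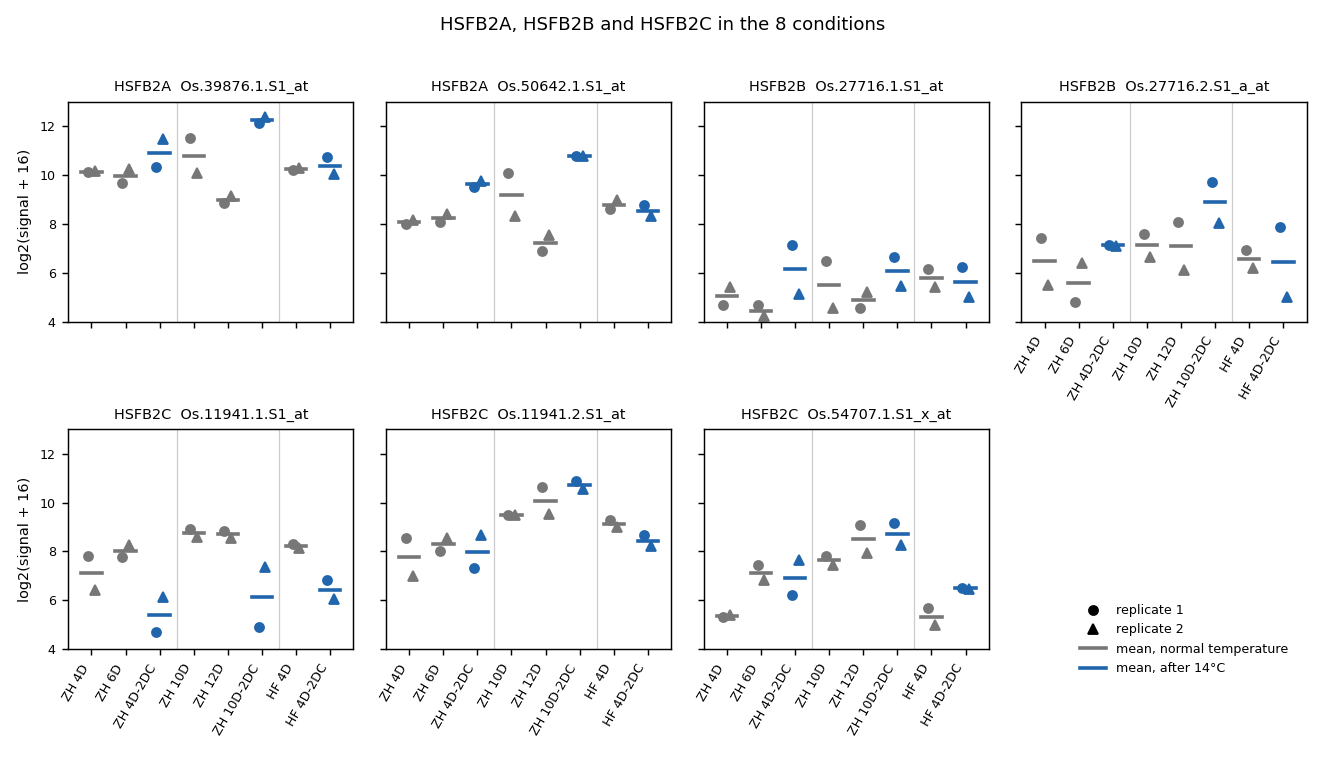
Levels of HSFB2A, HSFB2B and HSFB2C in the 8 conditions, 1 panel a probe set, with the y axis and symbols as for the class A2 genes: log2(signal + 16), circles for replicate 1, triangles for replicate 2, and bars for the mean, blue after 14°C. HSFB2A peaked in ZH 10D-2DC in both panels, and Os.11941.1.S1_at of HSFB2C was low after 14°C in ZH and in HF seeds.

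HSFB2B had low signals in these seeds, and its replicates spread widely. Os.27716.2.S1_a_at read 4.83 and 6.39 in ZH 6D and 7.15 and 7.10 in ZH 4D-2DC, so that both treated arrays were higher, by 1.52 (standard error 1.07). At the later stage it read 8.09 and 6.12 in ZH 12D and 9.71 and 8.06 in ZH 10D-2DC, a difference of 1.78 (standard error 1.07) with overlapping arrays, as treated replicate 2 lay just below untreated replicate 1. Against ZH 10D, at 7.60 and 6.66, both treated arrays were higher, by 1.75 (standard error 1.07). None of these differences passed the methods' threshold. In HF seeds it read 6.94 and 6.19 before and 7.89 and 5.03 after the treatment, in opposite directions in the 2 replicates.

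The other HSFB2B probe set, Os.27716.1.S1_at, had a mean of 5.45 over all arrays, under the filter at 5.94, and was not tested. It read 4.68 and 4.24 in ZH 6D, 7.15 and 5.16 in ZH 4D-2DC, 4.57 and 5.22 in ZH 12D and 6.66 and 5.49 in ZH 10D-2DC. The treated arrays were above the untreated ones at both stages, with signals of at most 126. Its r with the tested probe set was 0.651 over the 8 condition means.

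HSFB2C had 3 probe sets, and 1 of them was lower after low temperature in both ZH and HF seeds. Os.11941.1.S1_at read 7.75 and 8.28 in ZH 6D and 4.71 and 6.13 in ZH 4D-2DC. It read 8.84 and 8.55 in ZH 12D and 4.91 and 7.37 in ZH 10D-2DC, and 8.31 and 8.14 in HF 4D and 6.82 and 6.07 in HF 4D-2DC. Treated arrays were below untreated ones in each of these 3 comparisons. The log2 differences were -2.60 (standard error 0.83) at 4 DAF in ZH, -2.56 (standard error 0.83) at 10 DAF in ZH and -1.78 (standard error 0.83) in HF. The replicates agreed on the direction and less on the size, which within replicate 1 and replicate 2 was -3.94 and -1.18 at 10 DAF in ZH. Over all 16 arrays the 6 treated ones ranged from 4.71 to 7.37 (median 6.10) and the 10 untreated ones from 6.42 to 8.90 (median 8.30), and 4 of the 6 lay below all 10.

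The 2 further HSFB2C probe sets were higher in older seeds, and so was Os.11941.1.S1_at. In Os.11941.1.S1_at the ZH 10D and ZH 12D arrays lay above those of ZH 4D and ZH 6D. The difference was 1.15 (standard error 0.59), not past the methods' threshold. Os.11941.2.S1_at read 8.57 and 7.01 in ZH 4D, 8.02 and 8.56 in ZH 6D, 9.49 and 9.51 in ZH 10D and 10.64 and 9.52 in ZH 12D. Both later stages were above both earlier ones, by 1.75 (standard error 0.50) on average. Os.54707.1.S1_x_at, again with probes that can match other sequences, read 5.31 and 5.39 in ZH 4D, 7.43 and 6.84 in ZH 6D, 7.83 and 7.47 in ZH 10D and 9.08 and 7.95 in ZH 12D. Its later stages were higher by 1.84 (standard error 0.47) and its ZH 6D arrays were above ZH 4D by 1.78 (standard error 0.67). Low temperature at 10 DAF left both overlapping with ZH 12D, with differences of 0.65 (standard error 0.70) and 0.22 (standard error 0.67). Against ZH 10D both treated arrays were higher in each, by 1.23 (standard error 0.70) and 1.08 (standard error 0.67), neither past the methods' threshold. In HF seeds Os.11941.2.S1_at was lower on both treated arrays, at 9.30 and 8.98 in HF 4D and 8.65 and 8.23 in HF 4D-2DC, a difference of -0.70 (standard error 0.70), also not past the threshold. Os.54707.1.S1_x_at was instead higher on both treated HF arrays, at 5.69 and 4.98 in HF 4D and 6.50 and 6.47 in HF 4D-2DC. Its difference was 1.15 (standard error 0.67), not past the threshold either. These 2 probe sets had an r of 0.741 with each other, against 0.262 and 0.041 with Os.11941.1.S1_at, and whether the 3 probe sets measure different transcripts of the gene was not tested.

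Low temperature from 10 DAF brought 5 of the 12 tested probe sets above ZH 12D past the methods' threshold and 1 below it, beside 1.06% higher and 1.45% lower of the 34331 probe sets tested. The 5 were the 3 of HSFA2A and the 2 of HSFB2A, and the 1 was Os.11941.1.S1_at of HSFB2C. Of the 5, Os.2292.1.S1_a_at had a mean of 5.95 over all arrays, just above the filter at 5.94. It was tested only through ZH 10D-2DC, the condition where it was highest. The 6 genes were chosen with their values in all 8 conditions known. Nothing is therefore read from these counts, nor from the other counts of their probe sets here and in the paragraphs below. Against ZH 10D, 2 were higher (0.83% of all), both of HSFB2A, and 1 lower (0.929% of all), again Os.11941.1.S1_at. From 4 DAF only Os.11941.1.S1_at passed against ZH 6D (0.562% of all lower, 0.647% higher), and with the replicate number as a block Os.50642.1.S1_at of HSFB2A was higher as well (1.75% of all). Against ZH 4D, Os.50642.1.S1_at and Os.54707.1.S1_x_at of HSFB2C were higher (0.967% of all), and with the block 4 were (2.16% of all), HSFA2A Os.2292.2.S1_at and HSFB1 being the others.

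In HF seeds no probe set of the 6 genes passed after the treatment (0.647% of all higher, 1.64% lower), and with the block Os.11941.1.S1_at did (4.62% of all lower). In untreated ZH seeds, 3 were lower at 12 than at 10 DAF (0.396% of all), 1 of HSFA2A and both of HSFB2A. The 6 DAF seeds had 1 above those of 4 DAF (1.24% of all), and the 2 later stages together had 2 above the 2 earlier ones (6.08% of all), all of HSFB2C. With the block Os.2217.1.S1_a_at of HSFA2D passed too (8.58% of all), at 1.10 (standard error 0.86 without the block). The low temperature difference itself was larger at 10 DAF than at 4 DAF for 3 probe sets (0.629% of all), both of HSFB2A and Os.2292.1.S1_a_at of HSFA2A, the last at 2.65 (standard error 1.13). Within replicate 1 and replicate 2 the last was at 4.67 and 0.64, and it passed the filter only through ZH 10D-2DC. With the block 4 passed (1.74% of all), Os.2292.2.S1_at of HSFA2A being the fourth, at 2.62 (standard error 1.57 without the block). In the low temperature comparisons with ZH 6D, ZH 12D and HF 4D, 0 probe sets of any gene passed an adjusted p of 0.05 (limma, Benjamini-Hochberg), while 415, 861 and 786 passed the unadjusted threshold.

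**Figure D3:**
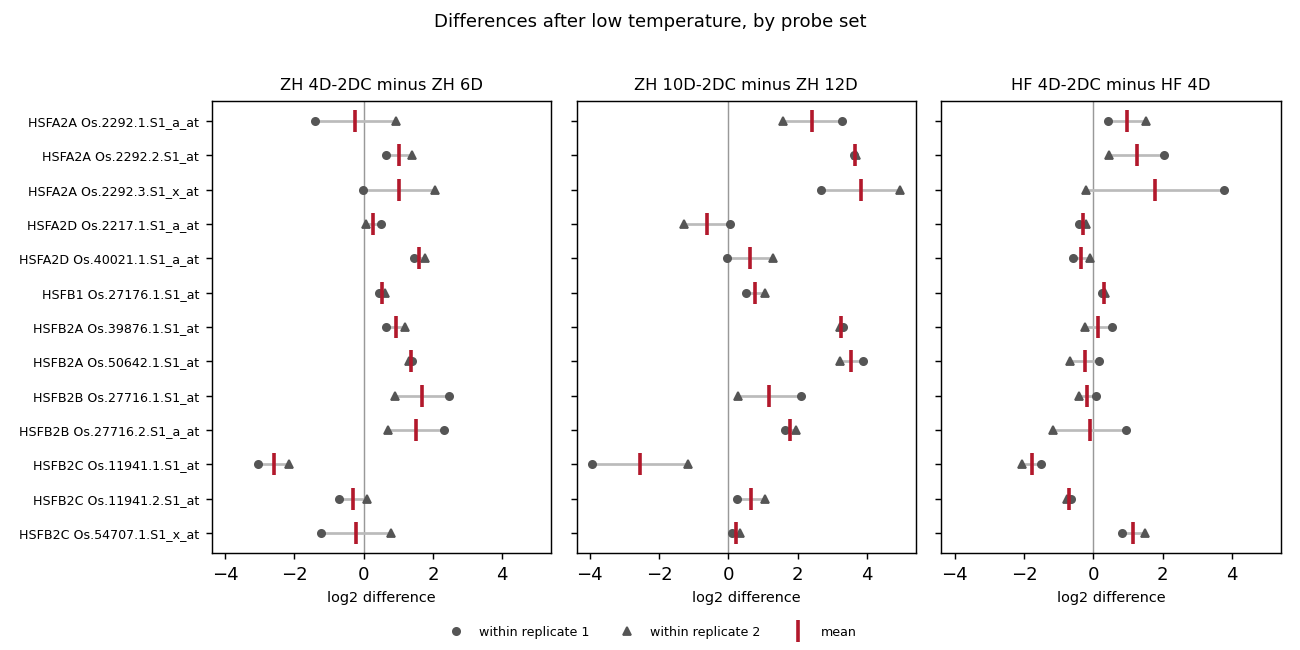
Log2 difference after low temperature of the 13 probe sets of the 6 genes, in ZH from 4 DAF, in ZH from 10 DAF and in HF from 4 DAF. Circles and triangles are the differences within replicate 1 and replicate 2, red ticks their mean, and the grey line marks 0. At 10 DAF the 5 probe sets of HSFA2A and HSFB2A lay above 0 within both replicates, and Os.11941.1.S1_at of HSFB2C lay below 0 in all 3 panels.

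Between the cultivars, no probe set of the 6 genes passed the methods' threshold, either at 4 DAF before the treatment (1.88% of all passed in either direction) or after it (1.3% of all). Before the treatment Os.11941.1.S1_at and Os.11941.2.S1_at of HSFB2C were higher in both HF arrays than in both ZH arrays. The differences were 1.10 (standard error 0.83) and 1.36 (standard error 0.70). The arrays of the cultivars overlapped for the other HSFB2C probe set, Os.54707.1.S1_x_at, at -0.015 (standard error 0.67). The endosperm marker sums given above for ZH 4D and HF 4D differed more between the arrays of one cultivar than the HSFB2C values did. After the treatment HSFA2A Os.2292.2.S1_at was lower in HF by -1.41 (standard error 1.11), a difference past the threshold only with the block (2.32% of all lower). The arrays of the cultivars overlapped in it, as in the other HSFA2A probe sets. Those were at 0.29 (standard error 0.80) for Os.2292.1.S1_a_at and -0.73 (standard error 1.28) for Os.2292.3.S1_x_at, neither past the threshold with the block. At an adjusted p of 0.05, 1 probe set of all passed before (0.00291%) and 4 passed after the treatment (0.0117%), none of them of the 6 genes. The low temperature difference of HF minus that of ZH was below 0 for all 13 probe sets, none past the threshold (0.565% of all lower). These probe sets share the same arrays, and the share of all probe sets below 0 was not taken, so nothing is read from that count. The median was -0.74 over the 6 genes against -0.09 over all probe sets tested. The 6 genes were chosen with these values known, so nothing is read from that gap either. The same median was -0.84 over 17 small heat shock protein genes, -0.29 over 14 other heat stress factor genes and 0.20 over 5 large chaperone genes.

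Of the other heat stress factor genes, few passed the threshold in any main comparison. The array held 14 of them with a tested probe set, each represented by whichever of its probe sets had the highest mean signal. After the treatment from 4 DAF, 1 of 14 differed from ZH 6D past the methods' threshold. It was HSFC2A, of class C, which read 6.54 and 7.60 in ZH 6D and 8.23 and 9.86 in ZH 4D-2DC, a difference of 1.98 (standard error 0.83, limma adjusted p = 0.99997). From 10 DAF, 0 of 14 did, and the 2 of the highest mean were at -0.40 for HSFA1 (standard error 0.69) and at -0.47 for HSFA2E (standard error 0.56). With the replicate number as a block 1 of 14 did, HSFA2C at 1.30 (standard error 0.85 without the block), another class A2 gene whose record carries dioxygenase synonyms. The median over the 14 was 0.21 at 4 DAF and -0.25 at 10 DAF, against 0.04 and -0.02 over all probe sets tested. Over the 6 chosen genes it was 0.73 and 1.28, but they were chosen by these differences, so nothing is read from that gap. Over 17 small heat shock protein genes it was 0.36 and 1.14.

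In HF 4D-2DC against ZH 4D-2DC, HSFA3 was the 1 of 14 past the threshold. It read 9.86 and 9.93 in ZH 4D-2DC and 8.76 and 7.97 in HF 4D-2DC, a difference of -1.53 (standard error 0.65, limma adjusted p = 0.99998). Before the treatment 0 of 14 differed between the cultivars at that threshold, with 0.69 (standard error 0.69) for HSFA1 and 0.20 (standard error 0.56) for HSFA2E. With seed age, 3 of 14 were higher in ZH 10D and ZH 12D than in ZH 4D and ZH 6D, where 6.08% of all probe sets were higher: HSFC1B by 2.36 (standard error 0.71), HSFC2A by 1.83 (standard error 0.59) and HSFA6B by 1.69 (standard error 0.51). None passed an adjusted p of 0.05 (1.15% of all did), and with the replicate number as a block HSFA6B did at adjusted p = 0.0481 (limma, 4.06% of all).

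Among the chaperone genes, which are known targets of heat stress factors, some small heat shock proteins were higher at 10 DAF. Of 17 tested small heat shock protein genes, 6 were higher and 0 lower past the methods' threshold after the treatment from 10 DAF, where 1.06% of all probe sets were higher, led by HSP18.1 at 3.05 (standard error 1.22), HSP17.4 at 3.004 (standard error 0.83) and HSP18.0 at 2.51 (standard error 0.80). HSP18.0 had 2 further probe sets that went the other way, at -1.13 and -0.55. With the replicate number as a block 8 were higher (2.78% of all) and 1 lower. At 4 DAF, 1 was higher and 1 lower, HSP18.1 by 2.97 (standard error 1.22) and HSP26.7 by -3.10 (standard error 0.96), and with the block 3 were higher and 1 lower. A second probe set of HSP18.1 was at 0.49 at 4 DAF and 2.86 at 10 DAF. Of 5 large chaperone genes, 0 passed at either stage, and those of the highest mean were at 0.78 for BIP1 (standard error 1.12) and at -0.49 for HSP81-2 (standard error 0.83) at 10 DAF. With the block 1 of 5 passed at 10 DAF, CLPB1 at 1.505 (standard error 0.73 without the block). All these calls were at the unadjusted threshold, and no adjusted p was below 0.05.

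**Figure D4:**
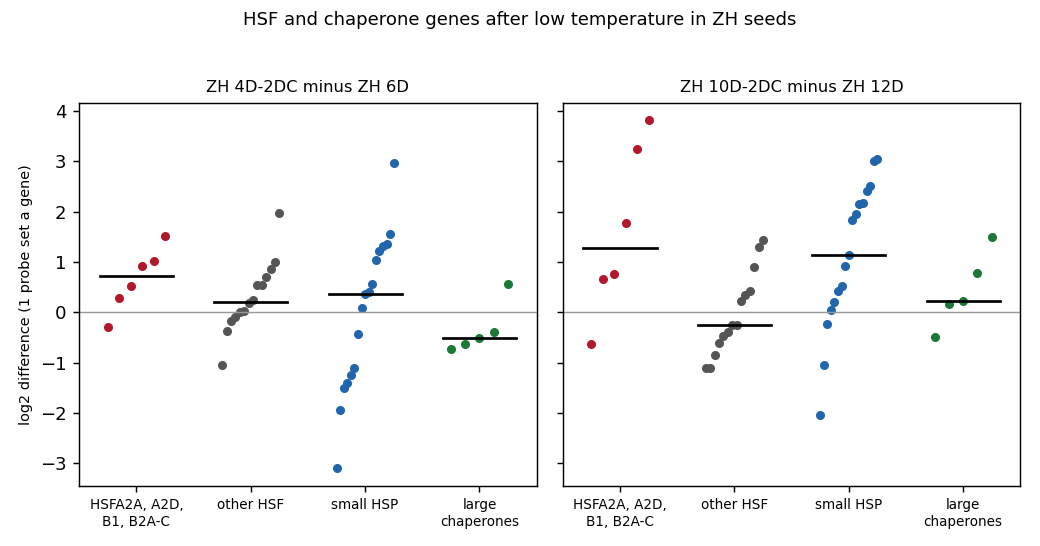
Log2 differences of the 6 chosen genes, the 14 other heat stress factor genes, 17 small heat shock protein genes and 5 large chaperone genes after low temperature in ZH seeds, 1 probe set a gene, from 4 DAF (left) and 10 DAF (right). Points are genes sorted by value, and black lines are medians. At 10 DAF these were 1.28 for the 6 genes, which were chosen by these differences, and -0.25 for the other heat stress factor genes. They were 1.14 for the small heat shock protein genes and 0.22 for the large chaperone genes.

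Over the 8 condition means, and across 2049 named genes with a tested probe set, the patterns nearest to HSFB2A were those of APG12, an autophagy protein (r = 0.95), HSP18.0 by its probe set Os.519.1.S1_at (r = 0.93) and PP2C30, a protein phosphatase (r = 0.88). Within replicate 1 and replicate 2 alone, APG12 stood at r = 0.91 and 0.68, HSP18.0 at 0.82 and 0.90 and PP2C30 at 0.61 and 0.78. HSFA2A had the same first pair, APG12 at r = 0.94 and HSP18.0 at r = 0.93, followed by GSTU6, a glutathione transferase, at r = 0.90. Within replicate 1 and replicate 2 alone, APG12 stood at r = 0.62 and 0.67 with HSFA2A, and GSTU6 at 0.52 and 0.92. HSFA2A and HSFB2A themselves correlated at r = 0.87. All points of these correlations share the arrays, and each r rests on 8 means of 2 arrays, highest in ZH 10D-2DC for both genes. The neighbours here and below were picked as the highest of 2049, so nothing is read from the size of r.

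HSFB1 lay nearest to CPK9, a calcium-dependent protein kinase (r = 0.99), LAC3, a laccase (r = 0.99), and NEDD8, a ubiquitin-like protein (r = 0.97). HSFB2B lay nearest to IAA23, of the Aux/IAA family (r = 0.99), HSFC2A (r = 0.95) and TPP9, a trehalose phosphate phosphatase (r = 0.95). Within the replicate 1 arrays alone these stood at r = 0.46, 0.76 and 0.64, and within replicate 2 at 0.63, 0.62 and 0.63. For HSFB2C, by Os.11941.2.S1_at, the nearest were MTP7, a metal transporter (r = 0.98), APG8C, an autophagy protein (r = 0.96), and GL2 (r = 0.96). GL2 stood at r = 0.61 within replicate 1 and 0.69 within replicate 2. For HSFA2D, by Os.2217.1.S1_a_at, they were PUB12, a U-box ubiquitin ligase (r = 0.97), DPK4 (r = 0.94) and NLP2 (r = 0.93), although within the replicate 2 arrays alone DPK4 and NLP2 stood at r = 0.15 and 0.25.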

How the data were processed

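Whole-seed RNA was hybridised to Affymetrix rice arrays, and the deposited values are intensity signals on a linear scale. The labels name MAS5 for them, while the methods of the study name GC-RMA. The trimmed mean of each deposited array (2% cut at each end) is 500, and the values were taken as scaled MAS5 signals. From the deposited table, 187 control probe sets and the probe sets whose mean was at or below the 40th percentile were left out. One linear model per probe set, with a coefficient for each of the 8 conditions, was fitted to log2(signal + 16) of the other 34331 in limma 3.58.1 (R 4.3.3), with Benjamini-Hochberg adjustment over all of them. The methods' threshold is an unadjusted p below 0.05 with more than a 2-fold difference. Where genes are counted, the probe set with the highest mean signal stands for its gene. The number of arrays, 2 a condition, limits the precision. Differences between replicates 1 and 2 correlated between all 28 pairs of conditions (r = 0.216 to 0.638), so that the replicate numbers, which come from the sample titles, pair the samples, and a fit with the number as a block was made. All standard errors given are from the fit without the block, so they include the shift between replicates 1 and 2. The fit was also run on simulated data, with random noise set below the replicate spread of these arrays. Nothing about these arrays is read from that run. The 6 genes and all gene lists were chosen with earlier results of these data known. The other genes named are those past the methods' threshold in a main comparison (up to 3 of the largest difference in a chaperone list, all of the heat stress factors) or, where none passed, the 2 of the highest mean, and the 3 nearest patterns per gene. HSFA6B, HSFC1B, HSFA2C, HSFA2E, HSFA5 and CLPB1 are also named for seed age, the block or opposite directions, after their values were seen. A list of co-chaperones and multiprotein bridging factors matched no annotated gene. Other pseudocounts, filters and normalizations, the block and the omission of each array were tried as alternatives. Gene names come from the array annotation, updated through the RefSeq gene table. Sequences were not used here.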

Additional observations from a re-analysis of the deposited data

Results flagged for a closer look

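For 3 genes the same contrast went in opposite directions in 2 settings, on every array. The share of all genes that do so was not taken, so nothing is read from that count. HSFB2A, by Os.50642.1.S1_at, was higher in HF than in ZH seeds at 4 DAF by 0.712 and lower after low temperature by -1.08, and the fitted difference between these contrasts was -1.79 (standard error 0.90), not past the methods' threshold. HSFA2E was higher after low temperature from 4 DAF by 0.543 (against ZH 6D) and lower after low temperature from 10 DAF by -0.468 (against ZH 12D), and the difference between these 2 values was not past the threshold (-1.01, standard error 0.79, limma adjusted p = 0.99994). HSFA5 was lower after low temperature against ZH 4D by -0.811 and higher against ZH 10D by 0.438, and the difference between these contrasts was not tested.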

How the results depend on the processing

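The count of other heat stress factor genes past the methods' threshold was 1 at 4 DAF, 0 at 10 DAF, 0 between the untreated cultivars and 1 between the treated ones. At 10 DAF it was 1 with the replicate number as a block and 2 with quantile normalization and that block. Between the treated cultivars it was 0 with quantile normalization and 0 with median centring. Leaving out 1 array at a time gave 0 to 2 genes at 4 DAF (0 without ZH 6D replicate 1 or ZH 4D-2DC replicate 2, 2 without ZH 6D replicate 2), 0 to 1 at 10 DAF (1 without either ZH 10D-2DC array), 0 to 1 between the untreated cultivars (1 without ZH 4D replicate 2) and 0 to 1 between the treated ones (0 without either ZH 4D-2DC array or HF 4D-2DC replicate 2). Counts over all probe sets rose with the block from 415 to 1128 at 4 DAF, from 861 to 2076 at 10 DAF, from 644 to 1604 between the untreated and from 445 to 1042 between the treated cultivars. The block changed no call of a named gene in a main comparison other than those given above. Of 372 values of the 6 genes under other settings, 366 moved by less than the replicate spread, and 10 changed sign. The filters and the block leave a difference unchanged by construction, so part of the 366 was fixed in advance. With 1 array left out, 35 of 192 changed sign. For the 6 probe sets past the threshold at 10 DAF the ranges under other settings were 1.61 to 2.96, 2.40 to 4.79 and 2.999 to 4.35 for HSFA2A, 3.14 to 3.32 and 3.18 to 3.80 for HSFB2A and -3.07 to -1.84 for HSFB2C, widest with other pseudocounts, and that of HSFB2C at 4 DAF was -3.30 to -1.72. Leaving out 1 array gave 3.25 to 4.05 for Os.2292.2.S1_at and 3.10 to 3.41 and 3.22 to 3.88 for HSFB2A. By over 1.5-fold it moved Os.2292.1.S1_a_at (1.79 without ZH 10D-2DC replicate 1, 3.04 without replicate 2), Os.2292.3.S1_x_at (4.85 without ZH 12D replicate 1, 2.79 without replicate 2) and Os.11941.1.S1_at at 10 DAF (-1.32 without ZH 10D-2DC replicate 1, -3.79 without replicate 2) and at 4 DAF (-1.88 without ZH 4D-2DC replicate 1, -3.31 without replicate 2). Larger pseudocounts shrink differences of dim probe sets by construction, and the other causes were not tested. With 2 arrays a condition, the standard errors of the 12 tested probe sets were 0.64 to 1.28.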
